A study of Homo sapiens with 32 samples.

Results

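The FYCO1 and LZTFL1 locus on chromosome 3 holds 4 protein-coding genes, FYCO1, LZTFL1, CXCR6 and XCR1, and was examined here through the accessibility windows that lie on them. A window belonged to the locus when its centre fell inside the gene body of 1 of the 4 genes in GENCODE release 44 (hg38) or within 5000 bp of either end. This gave 18 of the 212358 windows of the count table. All 18 passed the filter on low counts, as did 185040 windows of the whole table. FYCO1 has 11 of them, LZTFL1 6, CXCR6 2 and XCR1 2. Both CXCR6 windows are also FYCO1 windows, because CXCR6 lies inside FYCO1, and 1 window lies within reach of both FYCO1 and LZTFL1. The locus was selected on a measured value, the fall of the window at the FYCO1 start in dTAGV-1 against control. The values of that contrast at the 18 windows are therefore given as a description, with no p-value.

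The assay was ATAC-seq. A transposase, Tn5, cuts and tags DNA where nucleosomes leave it free, so a window with more counts was more open. All libraries came from 1 clone, HEK_CloneZD29, of HEK293T, a human embryonic kidney cell line, an identity taken from the labels. In this clone ZNF143, a zinc finger transcription factor that binds gene promoters, carries an inducible degron tag. Control cells received DMSO and carried the tag too, and treated cells received 50 nM dTAGV-1, a molecule that brings the tagged protein to an E3 ubiquitin ligase, for 30 minutes. The count table covers replicates 9 to 16 of each group (n = 8 control and 8 dTAGV-1 libraries). The labels do not say whether replicates are separate cultures, so the p-values given below measure only the spread between these libraries. ZNF143 protein was not analysed here.

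Total counts per library ranged from 2275856 in control replicate 12 to 13671039 in dTAGV-1 replicate 10. Control replicate 12, dTAGV-1 replicate 12 (3373219) and dTAGV-1 replicate 11 (4642812) were the shallowest and had flatter profiles. The tenth of windows with the highest mean level took 32.0%, 39.1% and 41.9% of their counts, against 45.9% in control replicate 11 and 48.1% to 49.5% in the others.

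FYCO1 is an adaptor of the autophagy pathway. It binds LC3 on autophagosomes, RAB7 and the lipid PI3P, and connects these vesicles to kinesin motors that move them along microtubules towards the cell periphery. LZTFL1 is a leucine zipper protein that binds the BBSome, the coat complex that carries membrane proteins in and out of cilia, and regulates its traffic. CXCR6 and XCR1 are chemokine receptors, for CXCL16 and for XCL1 and XCL2, best known from T cells and natural killer cells (CXCR6) and from cross-presenting dendritic cells (XCR1).

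FYCO1 (ENSG00000163820.16) spans positions 45917903 to 45995824 of chromosome 3 and LZTFL1 (ENSG00000163818.20) positions 45823316 to 45916042, both on the minus strand. CXCR6 (ENSG00000172215.6) lies at 45940933 to 45948351 on the plus strand, and XCR1 (ENSG00000173578.9) at 46016990 to 46085825 on the minus strand. The main FYCO1 transcript starts at 45995824, and a long noncoding RNA gene, ENSG00000288717, starts 134 bp away on the opposite strand. The strongest FYCO1 window, at 45995665 to 45996065, has its centre 41 bp upstream of the FYCO1 start, between the 2 genes, and is called the FYCO1 start window here. The LZTFL1 start window, at 45841975 to 45842375, has its centre 30 bp from an LZTFL1 transcript start. The sequence upstream of each start is shown because these 2 windows were close in level in control cells and differed in dTAGV-1. Both are from hg38, minus strand, 5′ to 3′. Capitals mark every match, on either strand, of ACTACAA, a word of the extended ZNF143 motif, and of the word GGGAGTTG.
FYCO1 upstream, chr3:45995825-45996065: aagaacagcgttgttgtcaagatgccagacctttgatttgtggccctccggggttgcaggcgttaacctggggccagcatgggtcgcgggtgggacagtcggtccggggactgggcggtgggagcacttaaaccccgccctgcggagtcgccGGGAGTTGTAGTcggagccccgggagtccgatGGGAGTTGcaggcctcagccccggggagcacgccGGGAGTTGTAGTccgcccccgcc
LZTFL1 upstream, chr3:45842146-45842375: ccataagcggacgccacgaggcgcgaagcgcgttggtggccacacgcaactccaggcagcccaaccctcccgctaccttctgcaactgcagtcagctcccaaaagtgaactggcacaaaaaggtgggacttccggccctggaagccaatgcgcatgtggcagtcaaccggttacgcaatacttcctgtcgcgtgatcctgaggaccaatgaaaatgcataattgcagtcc

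The FYCO1 stretch held ACTACAA at 2 places, both on the strand opposite to the gene, 12 to 18 bp and 78 to 84 bp upstream of the start. The word GGGAGTTG, chosen after the sequence was seen, occurred at 3 places, at 45995840 to 45995847, 45995874 to 45995881 and 45995906 to 45995913, spaced 34 and 32 bp apart. At the outer 2 of these it overlaps ACTACAA on the other strand. The same 17-base run, cgccgggagttgtagtc, was present in 2 copies 66 bp apart. The LZTFL1 stretch held neither word. The summit that the authors deposited for replicates 1 to 8 lies at 45995892, 68 bp upstream of the FYCO1 start, between the middle copy of the word and the copy farthest from the start. GC content was 67.1% in the FYCO1 start window and 59.4% in the LZTFL1 start window, against a median of 62.8% over all tested windows within 500 bp of a transcript start.

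In control cells the FYCO1 start window was the most open of the 18 windows, and in dTAGV-1 cells it had lost more than any other window of the locus. Its level, in log2 CPM (log2 of the counts scaled to library size, with a prior count of 2), had a lowest value of 4.33, a median of 4.73 and a highest value of 4.86 in the 8 control libraries. In the 8 dTAGV-1 libraries the lowest, median and highest levels were 3.42, 3.58 and 3.75. Every dTAGV-1 library was below the lowest control library, so the groups did not overlap. The mean went from 4.70 ± 0.18 to 3.58 ± 0.11 (SD, n = 8 each), a log2 fold change of -1.15 (SE 0.13, 95% interval -1.40 to -0.89), which left 45.2% of the control level. Between libraries of the same replicate number the difference lay between -1.29 and -0.91, lower in dTAGV-1 in 8 of 8 pairs. The counts behind these levels were 53 to 302 in control and 38 to 162 in dTAGV-1 libraries.

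This window was called lower with edgeR's quasi-likelihood test (Benjamini-Hochberg adjusted p under 0.05 over all tested windows), as the choice of the locus required. Of the 18 windows, 1 was called lower and 0 were called higher; of all tested windows, 0.213% were called lower and 0.00108% higher. Among windows within 500 bp of a transcript start, 0.561% were called lower. Non-overlap, with all 8 dTAGV-1 libraries below all 8 controls, held for 1 of the 18 windows and for 0.0713% of tested windows. Within the 395 windows called lower in the table, the FYCO1 start ranked 136 by size of fold change and 81 by control level. The median of these 395 windows was -0.95 for the log2 fold change and 3.50 log2 CPM for the control level. In order of p, the last window called lower in the table had a log2 fold change of -0.59 and the first not called had -0.58.

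**Figure D1:**
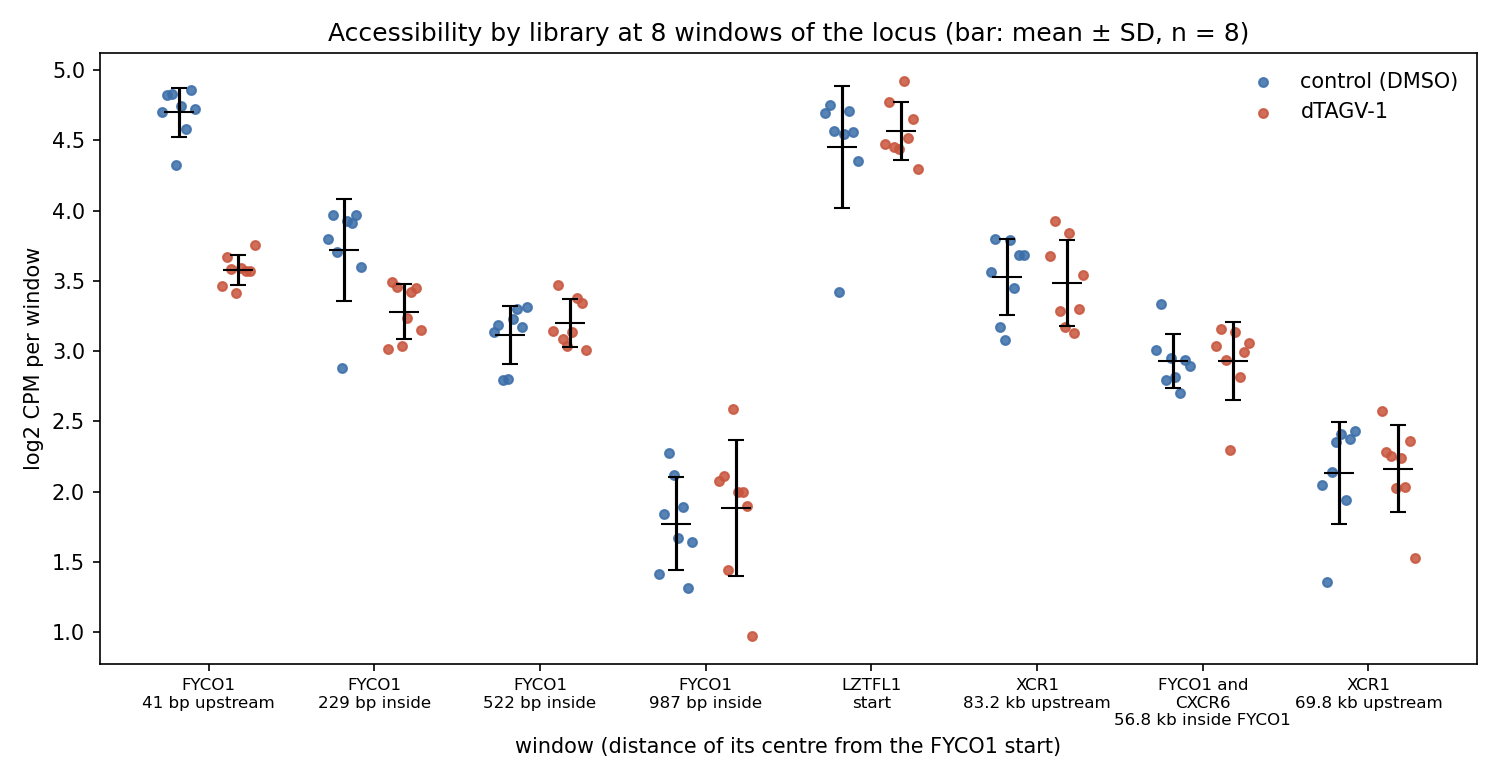
Level in log2 CPM (vertical axis) of each of the 8 control and 8 dTAGV-1 libraries at 8 windows of the locus, with mean ± SD. The 2 groups are apart at the FYCO1 start window, 41 bp upstream (means 4.70 and 3.58), and overlap at the other 7 windows.

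The loss was not spread evenly over the 4 windows that tile the FYCO1 start. The window centred 229 bp inside the gene, at 45995395 to 45995795 in the first intron, shares 131 bp with the start window. Its control levels had a lowest value of 2.88, a median of 3.86 and a highest value of 3.97, and its dTAGV-1 levels 3.01, 3.33 and 3.49. Of the 8 controls, 7 were above every dTAGV-1 library, and the lowest, control replicate 12, was below all of them. The log2 fold change was -0.49 (SE 0.14), which left 71.0% of the control level, and it was not called. It was called with the replicate number as a block (-0.51), with DESeq2 (-0.49), without control replicate 12 (-0.56) and without replicates 11 and 12 of both groups (-0.57).

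The next 2 windows into the gene had positive fold changes within the spread between libraries. The window centred 522 bp inside, at 45995102 to 45995502, had control levels of 2.79, 3.18 and 3.31 (lowest, median, highest) and dTAGV-1 levels of 3.01, 3.14 and 3.47. The groups overlapped, with a log2 fold change of 0.081 (SE 0.13, 95% interval -0.18 to 0.34). The window centred 987 bp inside, at 45994637 to 45995037, had control levels of 1.32, 1.76 and 2.28 and dTAGV-1 levels of 0.97, 2.00 and 2.59. Its groups overlapped as well, with a log2 fold change of 0.18 (SE 0.20). From upstream to inside, the fold change of the 4 windows therefore ran -1.15, -0.49, 0.081 and 0.18.

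**Figure D2:**
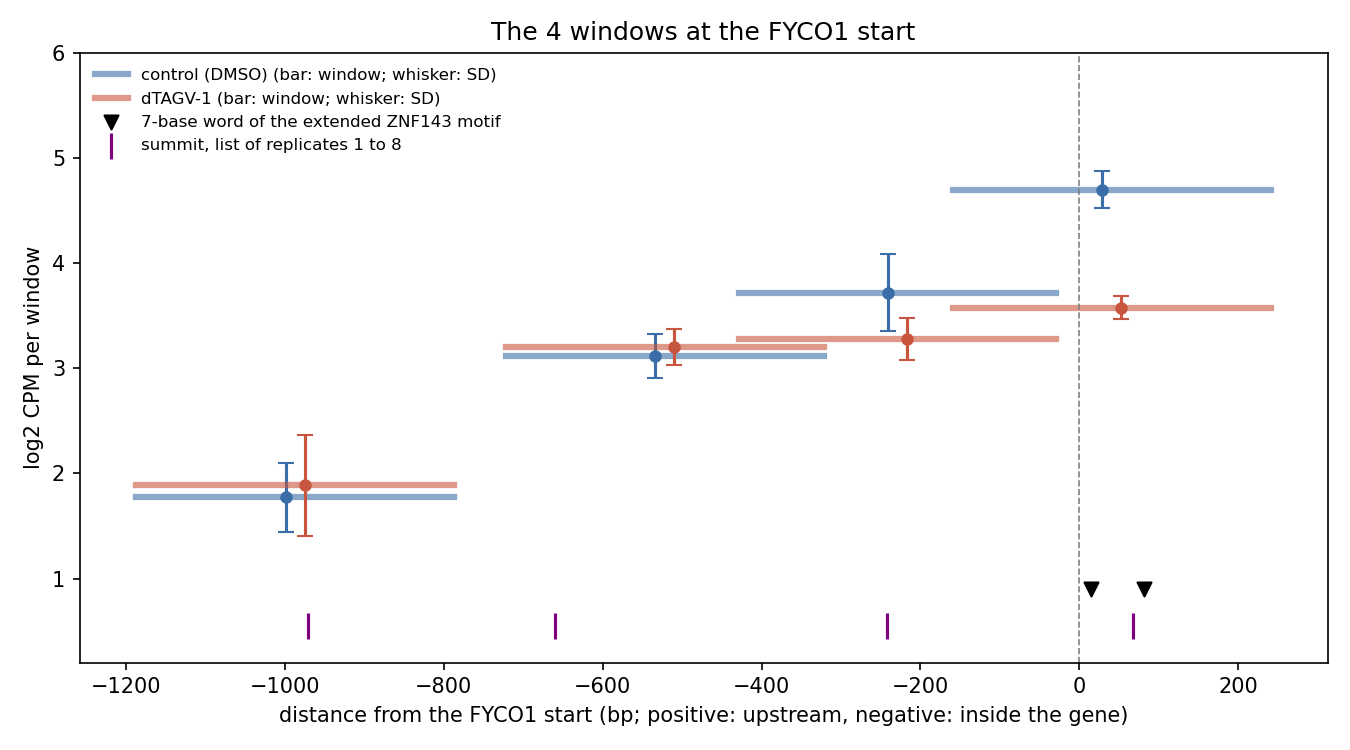
The 4 windows at the FYCO1 start, with distance from the start in bp (horizontal axis, negative inside the gene) and mean log2 CPM per window ± SD (vertical axis, n = 8 per group). Control and dTAGV-1 are apart at the start window, closer at the window 229 bp inside and level at the windows 522 and 987 bp inside; triangles mark the 2 ACTACAA matches and ticks the deposited summits.

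A ratio within each library does not depend on the scaling between libraries. The ratios here and in the next paragraph use the counts of the start window, which was chosen for its fall. Their separation between groups follows from that choice, so they describe the fall and are no separate support for it. Of the counts in the 4 windows, the start window held 45.8% to 54.0% in control libraries (median 51.4%) and 32.3% to 42.2% in dTAGV-1 libraries (median 33.6%). The shares of the 2 groups did not overlap. The share of the window 522 bp inside was 12.8% to 19.2% in control and 24.8% to 28.3% in dTAGV-1 libraries; it has the start window in its denominator, so it moves when that window falls. The 4 windows held 101 to 599 counts per library in control and 117 to 499 in dTAGV-1.

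Set against the LZTFL1 start window in the same library, the FYCO1 start window gave a count ratio of 0.911 to 1.89 in control (median 1.18). In dTAGV-1 libraries the ratio was 0.392 to 0.685 (median 0.489). Every dTAGV-1 library had fewer counts at FYCO1 than at LZTFL1, and the groups did not overlap. The ratio of 1.89 is that of control replicate 12, which had 28 counts at LZTFL1.

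**Figure D3:**
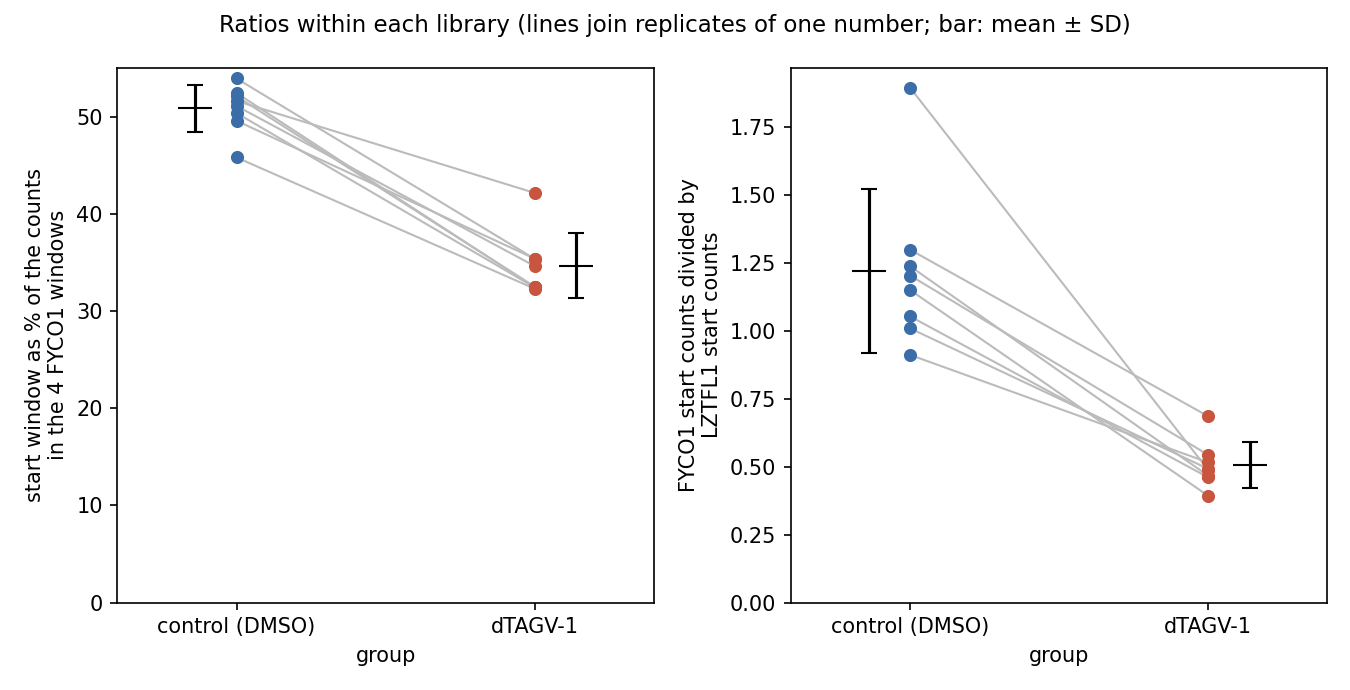
Share of the start window in the counts of the 4 FYCO1 windows (left, %) and ratio of FYCO1 start to LZTFL1 start counts (right), 1 point per library, with lines joining libraries of the same replicate number and bars for mean ± SD. All 8 lines fall in both panels, and control replicate 12 is the single high point of 1.89 on the right.

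Another 4 FYCO1 windows, deeper in the gene, had lower levels. The window centred 7809 bp inside FYCO1 had control levels of 0.36, 1.10 and 1.52 (lowest, median, highest) and dTAGV-1 levels of -0.31, 0.43 and 1.33. The groups overlapped, and the log2 fold change was -0.60 (SE 0.30) on 5 to 23 counts per library. The window centred 5459 bp inside gave -0.34 (SE 0.25). The opposite direction was seen at 45929045 to 45929445 in a FYCO1 intron, where control levels were 0.75, 1.65 and 1.89 and dTAGV-1 levels 1.54, 2.07 and 2.45. That window was higher in 7 of 8 pairs, with a log2 fold change of 0.45 (SE 0.19), and was not called. The window that partly overlaps it gave 0.22 (SE 0.31), and -0.02 without dTAGV-1 replicate 11.

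The LZTFL1 start window showed no change beyond the spread between libraries. Its start window had control levels of 3.42, 4.56 and 4.75 (lowest, median, highest) and dTAGV-1 levels of 4.29, 4.50 and 4.92. The groups overlapped, and dTAGV-1 was lower in 4 of 8 pairs. The log2 fold change was 0.064 (SE 0.15), with a 95% interval of -0.22 to 0.35. The fold change of the FYCO1 start, -1.15, lies outside this interval. That window was chosen for its fall, so the difference between the 2 windows was not tested. The single low control value, 3.42, is again control replicate 12, with 28 counts, and without this library the log2 fold change was -0.02. A window at 45915956 to 45916356, 114 bp from upstream LZTFL1 starts and also within 5000 bp of the FYCO1 end, gave 0.55 (SE 0.38) at a low level of 0.24 ± 0.90 in control and 0.74 ± 0.76 in dTAGV-1. Without dTAGV-1 replicate 11 it gave 0.29. The 4 other LZTFL1 windows, 3 of which also lie in introns of the chemokine receptor gene CCR9, ran from -0.049 (SE 0.37) to 0.17 (SE 0.30).

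Neither CXCR6 nor XCR1 had a window at a start of its own. For CXCR6 the closest window was centred 1602 bp from a transcript start, and for XCR1 6799 bp; windows lay within 500 bp of 0 of 4 CXCR6 starts and 0 of 3 XCR1 starts. For FYCO1 this was so for 2 of 4 starts and for LZTFL1 for 14 of 18. The window closest to CXCR6 lies at 45939131 to 45939531, in an exon of a noncoding FYCO1 transcript. Its centre is 72 bp from another FYCO1 start, at 45939403, and so nearer to FYCO1 than to CXCR6. Its control levels were 0.52, 1.05 and 2.12 and its dTAGV-1 levels 0.68, 1.30 and 2.38. The groups overlapped, with a log2 fold change of 0.42 (SE 0.26), and of 0.25 without dTAGV-1 replicate 11. The stronger neighbour of this window, at 45938785 to 45939185, is 418 bp from the same FYCO1 start and 1948 bp from the CXCR6 start. It had control levels of 2.70, 2.92 and 3.34 and dTAGV-1 levels of 2.30, 3.02 and 3.16. The groups overlapped there too, and the log2 fold change was 0.033 (SE 0.14).

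In XCR1 an intronic window at 46078826 to 46079226 was open at control levels of 3.08, 3.62 and 3.80 (lowest, median, highest). The dTAGV-1 levels were 3.13, 3.42 and 3.92. The groups overlapped, with a log2 fold change of -0.043 (SE 0.14, 95% interval -0.32 to 0.24). The second XCR1 window, at 46065380 to 46065780, is centred 115 bp from the start of a long noncoding RNA gene, ENSG00000288703. It went from 2.13 ± 0.36 to 2.16 ± 0.31, a log2 fold change of 0.059 (SE 0.17).

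**Figure D4:**
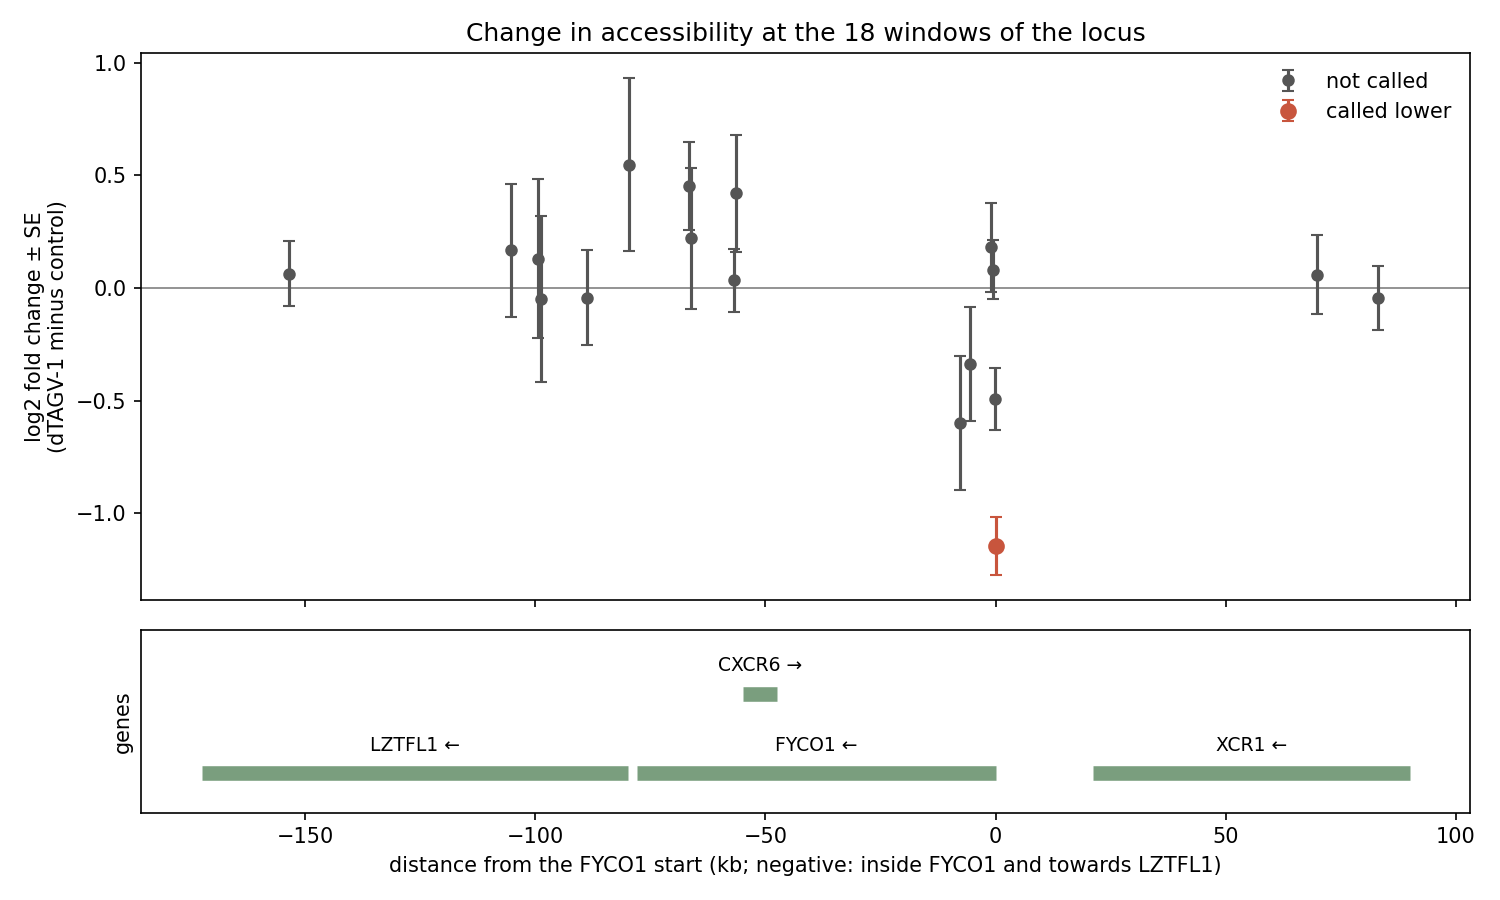
Log2 fold change (dTAGV-1 minus control) ± SE of the 18 windows against distance from the FYCO1 start in kb, above the extents and directions of the 4 genes. The FYCO1 start window is the single window called lower, at -1.15, and the other 17 lie between -0.60 and 0.55.

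Over the locus, 7 of 18 windows had a negative and 11 a positive log2 fold change, 38.9% negative against 48.2% of all tested windows. The median was 0.061, against 0.0077 over all tested windows and 0.011 over those within 500 bp of a start. The sign of 8 of the 18 log2 fold changes depended on the libraries, changing when 1 library was left out, and 10 kept their sign without each library. At an unadjusted p under 0.05, 3 windows were lower and 1 was higher; this threshold was passed by 2.85% of tested windows. The rule used this contrast, so nothing is read from these counts, and 7 of the 18 windows overlap another window of the locus and share counts with it.

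In control cells the order of openness, with 1 window a gene and all windows of the same length, was FYCO1, LZTFL1, XCR1, CXCR6. Each is the window nearest a transcript start of its gene, at 6799 bp for XCR1 and 1602 bp for CXCR6. The window taken for CXCR6 is only 72 bp from a FYCO1 start. The order is therefore one of these windows and not of the genes. The window nearest CXCR6 had a control mean of 1.04, its stronger neighbour 2.93 and the XCR1 window 3.53, so the last step depends on the window taken. The FYCO1 start window was above the LZTFL1 start window by 0.25 ± 0.31 log2 CPM (SD, n = 8), higher in 7 of 8 libraries, and by 0.16, higher in 6 of 7, without control replicate 12. The mean difference is smaller than its spread. This step is given without a p-value, because the control level of the FYCO1 start is part of the contrast on which the locus was selected. The steps among the windows of the other 3 genes did not enter the selection and were tested over the 8 control libraries with an exact two-sided sign-flip test. These windows were put in order by the same control levels that the test used. The LZTFL1 start window was above the XCR1 intronic window by 0.92 ± 0.34, in 8 of 8 libraries. The XCR1 window was above the window nearest CXCR6 by 2.49 ± 0.67, also in 8 of 8 libraries. For both, exact p = 0.00781, the smallest that 8 libraries can give, and 0.0117 after adjustment over 3 comparisons, the FYCO1 step included. Against all tested windows, the control levels of the FYCO1 and LZTFL1 start windows stood at percentiles 97.1 and 96.1.

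The authors' summit list, made from replicates 1 to 8, is a second set of libraries and gives positions and scores with no value per library. It placed 18 of its 259926 summits in the locus, 14 of them inside a window, and 14 of the 18 windows held 1. Each of the 4 windows tiling the FYCO1 start held a summit. The deposited -log10 score was 282.1 at the FYCO1 start (percentile 94.0), 35.8, 68.4 and 12.9 at the windows 229, 522 and 987 bp inside, and 619.8 at the LZTFL1 start (percentile 98.3). The XCR1 intron had 699.3 (percentile 98.6) and the stronger window near CXCR6 348.4 (percentile 95.5). By these scores the XCR1 intron, the LZTFL1 start and the stronger window near CXCR6 all ranked above the FYCO1 start. Both groups have replicates 1 to 8, and the list names no group, so dTAGV-1 libraries may be among its sources. The scores come from peak calling and are not levels, so they cannot be set against the order in control cells. A summit inside CXCR6 itself, at 45946593, had a score of 2.32 and no window.

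The ZNF143 core motif, CCCA, any 2 bases, then ATGC, was searched on both strands. Of the 18 windows, 0 held it within 100 bp of the centre, against 0.918% of tested windows. Of the 1698 tested windows with a core there, 69 (4.06%) were called lower. Of the 33 with at least 2 cores there, 14 (42.4%) were called lower, against 0.213% of all tested windows. Over whole windows, 2 of the 18 held it, and they share 1 match in the first intron of FYCO1, 403 to 412 bp inside the gene. This match is shown because no other core was found in the 18 windows. It lies in the overlap of the windows 229 and 522 bp inside the gene, and capitals mark it.
FYCO1 first intron, chr3:45995392-45995441, minus strand: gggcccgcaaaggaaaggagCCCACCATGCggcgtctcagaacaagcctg

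At the same distance 1 of the 18 windows, the FYCO1 start window, held ACTACAA, as did 1.98% of tested windows. At least 2 matches there were found in 0.0524% of tested windows, and of the 96 such windows other than the FYCO1 start, 15 (15.6%) were called lower, with a median log2 fold change of -0.18. At least 1 match was found in 3667 other windows, of which 106 (2.89%) were called lower. The share called lower was 0.213% over all tested windows and 0.561% over those within 500 bp of a transcript start. TTCCCA, a word that overlaps the start of the core in the extended motif, was found in 5 of the 18 windows and in 18.1% of tested windows.

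GGGAGTTG was found within 100 bp of the centre in 1.02% of tested windows. Of these 1891 windows, the FYCO1 start included, 52 (2.75%) were called lower, against 0.213% of all tested windows. Of the 42 other windows with at least 2 matches there, 4 (9.52%) were called lower. With 3 matches within 50 bp of the centre, the FYCO1 start was the only tested window. Within 100 bp there was 1 other, which had a log2 fold change of -0.19 and was not called. The 17-base run was found in 5 tested windows and in 2 copies in the FYCO1 start window alone. The 4 others, with 1 copy, had log2 fold changes between -0.29 and 0.10 and were not called. Both the word and the run were taken from the FYCO1 start sequence, where they repeat. That few other windows hold as many copies therefore follows largely from this choice. A match is a run of letters and no measurement of binding.

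The promoter windows whose level moved most like the FYCO1 start over the 16 libraries were all called lower themselves. Likeness was Pearson's r of log2 CPM among 27951 windows within 500 bp of a start of a protein-coding gene and at or above median abundance; their median r was 0.071. The 16 libraries are the 2 groups, and share depth and scaling, so a window with the same difference between groups scores high. First came the start shared by CCDC163 and MMACHC, a gene of vitamin B12 metabolism (r = 0.97, log2 fold change -1.96, SE 0.15). That window held 0 matches of ACTACAA, 0 of GGGAGTTG and 1 core. The start shared by HDGF and PRCC (r = 0.96, -1.23, SE 0.15) held 2 ACTACAA matches and 1 GGGAGTTG match. NAA38, a subunit of an N-terminal acetyltransferase (r = 0.96, -0.94), HSP90B1, the chaperone of the endoplasmic reticulum (r = 0.96, -1.07), and PEX26, a peroxisome import factor with 2 ACTACAA matches (r = 0.96, -0.96), followed. The windows of NAA38 and HSP90B1 held 0 matches of either word and 0 cores.

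The surroundings and the pathways of the 4 genes were described through lists of other genes, counting windows within 500 bp of their starts. Of all tested windows within 500 bp of a start, 0.561% passed as lower, the log2 fold change was below 0 in 46.1%, and 2.85% of all tested windows passed an unadjusted p under 0.05. In lists of this size the counts of called windows below are near those shares, so they are no result about the lists. Of 16 genes next to the locus on 3p21.31, 10 had such windows, 21 in all, and edgeR called 0 of them lower and 0 higher, with 1 at an unadjusted p under 0.05. Their median log2 fold change was -0.044. The lipid phosphatase gene SACM1L had -0.053 (SE 0.15) at its window at 45688822, the transporter gene SLC6A20 next to LZTFL1 0.10 (SE 0.23) at 45796223, and LIMD1 0.44 (SE 0.22) at 45665107 (adjusted p = 1.0). DESeq2 also called 0 of the 21.

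Of 27 genes of autophagosome transport and fusion, the pathway of FYCO1, 24 had windows, 69 in all, and edgeR and DESeq2 called 0 of them in either direction, with 0 at an unadjusted p under 0.05. The median was 0.015. Examples are the LC3 relative GABARAPL2 at 0.23 (SE 0.13), the cargo receptor SQSTM1 at -0.25 (SE 0.17) and the fusion protein VAMP8 at 0.20 (SE 0.15).

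Of 15 genes of the BBSome and its partners, the pathway of LZTFL1, 14 had windows, 29 in all, and edgeR and DESeq2 called 0, with 2 at an unadjusted p under 0.05 and 20 negative, against 2.85% and 46.1% in the background above. The median was -0.052. The 2 windows were those of ARL6, the GTPase that recruits the BBSome to membranes, at -0.41 (SE 0.16), and of CEP290, a protein of the ciliary transition zone, at -0.42 (SE 0.17). Both had an edgeR adjusted p of 1.0. Both were called lower by edgeR with the replicate block (ARL6 adjusted p = 0.00234, CEP290 0.000702) and without control replicate 12 (0.0188 and 0.00584). More windows were called lower in the whole table under these settings, 742 of 185040 with the block and 627 of 189561 without control replicate 12.

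Of 17 other chemokine receptor and ligand genes, 7 had windows, 13 in all, and edgeR and DESeq2 called 0, with 1 at an unadjusted p under 0.05. The median was 0.022. That 1 was CX3CR1, the fractalkine receptor, at -0.67 (SE 0.30) and a low control level of 0.95 ± 0.58. CXCR4 had -0.12 (SE 0.14), and CXCL16, the ligand of CXCR6, had 0.17 (SE 0.20).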

How the data were processed

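The authors deposited raw whole-number counts per window for replicates 9 to 16 of each group (16 libraries). The number of sample columns left unused was 0. The same deposited table gives a -log10 q value per window, and the deposited summit list a -log10 score; both start at 2.0 and were used to describe windows and summits within their lists. Tools named, without their role or order, are cutadapt 1.8.1, Bowtie2 2.4.4 and SAMtools 1.9, with hg38, per the submitters' processing notes. The peak caller, any shift of reads for Tn5 and the counting tool are not given in the sources used here. A missing shift would displace cuts by a few bases.

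Windows were filtered with filterByExpr by group, scaled by TMM and tested with edgeR 4.0.16 (quasi-likelihood, R 4.3.3) over these 16 libraries, with Benjamini-Hochberg adjustment over all 185040 tested windows. Levels are log2 CPM with a prior count of 2, and intervals are the estimate ± its normal 95% limit. The code was tested on simulated data. Control levels were compared with an exact sign-flip test in scipy 1.17.1. Outside the 4 genes, genes of 4 lists are named where called, plus up to 4 per list by unadjusted p and neighbours of FYCO1; at the locus, the window nearest each gene's start, called windows and the 3 next highest are described singly, and the 5 promoter windows most like the FYCO1 start are named. The members and lists were chosen with earlier results of these data known.

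Replicate pairs within a group differed beyond counting noise (chi-square per degree of freedom 1.64 to 4.88 over 56 pairs), so none was treated as the same library. Libraries of the same replicate number in the 2 groups deviated together (correlation of deviations from the group means 0.11 to 0.34 over 92520 windows, above 0.1 in all 8 pairs). Only control replicate 16 correlated more with a dTAGV-1 library of another number (0.133 against 0.118), and for control replicate 9 the values were close (0.106 and 0.108). Differences by number are therefore given, but the number was fitted as a block only as an alternative. The main fit left it out, so its SEs and intervals ignore any pairing. The labels do not say what the replicate number marks. Alternatives were DESeq2 size factors, no filter, DESeq2 1.42.0, the replicate block, each library left out, and replicates 11 and 12 left out. Libraries of replicates 1 to 8 have no counts here and enter through the summit list only.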

Additional observations from a re-analysis of the deposited data

Results flagged for a closer look

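In 8 of the 36 sets of 8 libraries (18 windows in 2 groups), the highest or lowest library stood apart from the other 7 by more than Dixon's 95% critical value for 8 samples. Chance flags about 1 set in 20, and overlapping windows share counts. Control replicate 12, the shallowest library, accounts for 4 of them. It was low at the LZTFL1 start (3.42 log2 CPM on 28 counts, others 4.35 to 4.75) and at the window 229 bp inside FYCO1 (2.88 on 19 counts, others 3.60 to 3.97). It was high at 2 weak FYCO1 windows, with 1.85 on 9 counts at 45929341 to 45929741 (others 0.36 to 0.79) and 2.12 on 11 counts at 45939131 to 45939531 (others 0.52 to 1.25).

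Control replicate 10 was low at 2 windows, with 0.34 on 11 counts 5459 bp inside FYCO1 (others 1.26 to 1.69) and 1.36 on 25 counts at the XCR1 window at 46065380 to 46065780 (others 1.94 to 2.43). The library dTAGV-1 replicate 11 had -0.61 on 2 counts at the LZTFL1 window at 45890383 to 45890783 (others 0.58 to 1.57). The library dTAGV-1 replicate 12 had 2.30 on 17 counts at the FYCO1 intron window at 45938785 to 45939185 (others 2.82 to 3.16).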

How the results depend on the processing

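The FYCO1 start window was called lower under all 21 alternatives, between -1.19 and -1.12 with each library left out, and the LZTFL1 start window was called under none. The alternatives reuse the libraries in which the FYCO1 start window was chosen for its fall, so its repeated call is no separate support. The number of windows called lower at the locus went from 1 to 2 with DESeq2, with the replicate block and without replicates 11 and 12 of both groups, and was 1 to 2 with each library left out; the second was the window 229 bp inside FYCO1. With no flank around the gene bodies it was 0, because the start window is centred 41 bp outside FYCO1. Among the lists, BBSome genes called went from 0 to 2 with the replicate block and without replicates 11 and 12, and 0 to 2 with each library left out. The replicate block changed no other call at the locus or in the lists. Of all tested windows, 395 were called lower, 742 with the block, 627 without control replicate 12 and 767 without replicates 11 and 12. The difference between the FYCO1 and LZTFL1 start windows in control was 0.16 without control replicate 12 and 0.25 with it. The cause of these changes was not tested. No called change reversed, while 8 of the 18 windows, all uncalled, changed sign when 1 library was left out, the LZTFL1 start window among them (-0.02 to 0.10). Weak windows, with 2 to 25 counts in a library, carry SEs up to 0.38. Larger changes than that were not called there either, with -0.60 (SE 0.30) 7809 bp inside FYCO1 and 0.55 (SE 0.38) at 45915956 to 45916356. The smallest change that could be called at such windows was not tested.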
